A study of Mus musculus with 26 samples.

Results

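Intraflagellar transport and BBSome genes were followed through ribosome-bound RNA purified from dorsal striatum of mice that took cocaine or saline. The set was chosen by symbol alone: every gene named Ift or Bbs with a number, Ttc30a1 and Ttc30b, and Ttc8, Ttc26, Traf3ip1, Kif3a, Kif3b, Kifap3, Dync2h1, Dync2li1, Arl13b, Arl6 and Adcy3. This rule, which reads no measured value, found 35 of 31977 genes counted in every library. Of the 35, 2 were called between immunopurified and input RNA, beside 7.38% of all genes tested. Dync2h1 was lower and Ttc30a1 was higher in immunopurified RNA. In the main edgeR fit no gene was called between any of the cocaine, saline and withdrawal groups, so none of the 35 was.

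Most neurons carry a single primary cilium, an antenna-like extension of the membrane that holds receptors and the adenylyl cyclase Adcy3. Intraflagellar transport trains made of IFT-B and IFT-A complexes carry cargo along it. Kinesin-2 (Kif3a, Kif3b and Kifap3) moves the trains to the tip, and dynein-2 (heavy chain Dync2h1, light intermediate chain Dync2li1) returns them to the base. The BBSome, an assembly of Bbs proteins recruited to membranes by the small GTPase Arl6, links the trains to membrane receptors and takes part in their removal from the cilium. Bbs10 and Bbs12 are chaperonin-like proteins needed to assemble it, and Arl13b is a small GTPase of the ciliary membrane. Mutations in BBSome genes cause Bardet-Biedl syndrome. Kinesin-2 also carries cargo in axons, so its transcripts are not specific to cilia.

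The libraries were made from dorsal striatum of Drd2-TRAP CP101 mice. The labels give their background as FVB/N-Swiss Webster crossed to C57BL/6 for a minimum of 9 generations. In this line a ribosomal protein, Rpl10a, fused to EGFP is made under control of Drd2, so an antibody to EGFP pulls down ribosomes of cells in which that transgene is active, mainly indirect-pathway medium spiny neurons. All groups carried the transgene and worked for intravenous infusions in long-access sessions. The immunopurified libraries came from 3 samples of saline mice, 4 of cocaine mice whose intake did not escalate, 2 of cocaine mice whose intake escalated, 5 of saline mice after withdrawal and 9 of non-escalating cocaine mice after withdrawal. The 3 input libraries, of RNA before purification, came from 1 saline, 1 non-escalating and 1 saline withdrawal sample. Library numbers form a set A and a set B. Set A holds 15 immunopurified and 2 input libraries, among them every library without withdrawal, and set B holds 8 immunopurified libraries after withdrawal and 1 input. The titles mark 16 of the 17 set A libraries as copies of lower numbers, and what the mark means is not stated there. The exception, saline withdrawal set A replicate 2, was placed by its number, which lies among those lower numbers. Its table has the annotation of 32531 genes and 3279457 counts, as set B tables do (that annotation, 3578445 to 5849243 counts in immunopurified libraries), while the other 16 tables of set A have 32657 genes. The sources used here give neither the length of withdrawal nor whether each library is a separate animal. P-values therefore measure only the spread among libraries, which may be technical.

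Gene counts per library ran from 3279457 to 19122303 in immunopurified and from 5016587 to 11549493 in input samples. Members took 0.104% to 0.166% of gene counts in immunopurified and 0.107% to 0.171% in input libraries. Uniquely aligned reads outside genes made up 21.2% to 70.7% of such reads in immunopurified libraries and 27.3% to 31.6% in inputs, and how members moved with that share is given at the end. D2 neuron markers summed to 1818.5 to 1938.4 CPM (counts scaled to a common library size with TMM factors) in the inputs. All 4 of these markers were called higher in immunopurified RNA. Their sum ran from 1921 through a median of 8351 to 17344 CPM over the immunopurified libraries. The lowest sum, in saline withdrawal set A replicate 1, lay within the range of the inputs. That library was among those tested against input. In bulk RNA, fewer cells of a type and less RNA per cell cannot be told apart.

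Promoter windows are shown because some of them hold a motif that the rule did not use. The X-box, bound by RFX transcription factors, is a known element of cilium genes. It was searched on both strands as GTNNCC followed, after 0 to 3 bases, by NGNAAC, in RefSeq promoters of build GRCm38.p6 from 250 bases before to 50 after each start. A promoter was found for 30 of the 35 members, and 8 of them (26.7%) held the motif. Among all 27025 genes with such a promoter 1606 (5.94%) held it. In 4 members the match lay before the RefSeq start. Those windows follow with the motif in capitals and up to 20 bases on each side, cut at that start.
Bbs7: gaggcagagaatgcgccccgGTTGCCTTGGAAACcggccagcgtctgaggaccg
Ift22: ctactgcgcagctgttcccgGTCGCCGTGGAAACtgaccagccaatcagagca
Ttc26: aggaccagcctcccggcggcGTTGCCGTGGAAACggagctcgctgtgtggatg
Ift57: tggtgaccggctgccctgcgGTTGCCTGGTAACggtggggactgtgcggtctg
The Bbs7 window is chr3:36613477-36613530 on the minus strand. The Ift22 window is chr5:136908097-136908149, the Ttc26 window chr6:38381471-38381523 and the Ift57 window chr16:49699214-49699266, all on the plus strand. Ift22 and Ift57 each hold another match upstream of the one shown. In GENCODE M21, Ttc26 starts at chr6:38381469 and Ift57 at chr16:49699233, so the matches shown for them lie past those starts. In the other 4 members the match lay past the RefSeq start. Of other lists written for this work, 9 of 18 transition zone and basal body promoters and 4 of 8 ependymal promoters held the motif, against 2 of 14 transport, BBSome and dynein-2 genes outside the rule, 2 of 14 ciliary receptors and adaptors, 1 of 4 astrocyte markers and 0 of 10 Hedgehog promoters. A match is a description of the letters and no evidence that a factor was bound there.

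The kinesin-2 genes Kif3a and Kifap3 were the most abundant of the set in ribosome-bound RNA. Per kb of exonic length (GENCODE M21), the median level over 23 immunopurified libraries was 60.8 CPM per kb for both the motor subunit Kif3a and Kifap3, which joins the motors to their cargo. Kifap3 was among the top 2 members in 23 of 23 libraries and Kif3a in 22. The other motor subunit, Kif3b, had a median of 16.6 CPM per kb. Between Kif3a and Kif3b came Ift20 at 27.0 CPM per kb, an IFT-B subunit that also sits at the Golgi, Ift57 at 21.7 CPM per kb and the BBSome subunit Bbs2 at 16.8 CPM per kb. Another BBSome subunit, Bbs1, had 13.2 CPM per kb. The lowest medians were those of Ttc26 at 0.815, Ttc30a1 at 0.720 and Bbs12 at 0.294 CPM per kb. The ranges over libraries overlapped in all 34 pairs of adjacent members. Ranges do not compare members within a library, so they cannot settle the order of neighbours.

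Members of 1 complex did not share a level. Within the BBSome, Bbs2 had the highest median, 16.8 CPM per kb (9.48 to 28.1), and Bbs5 the lowest, 2.26 CPM per kb (0.571 to 6.94), with no overlap between them. In IFT-A, which is needed for return transport, Ift140 had 2.40, Ift122 had 1.93 and Ift43 had 1.21 CPM per kb. Before division by length, 3 members had a median above 100 CPM, 23 lay between 10 and 100 CPM and 9 lay below 10 CPM. In all, 33 members had counts in every immunopurified library. The exceptions were Ift43 and Bbs12. Exonic overlap with other genes was 22.1% of bases for Adcy3 (Cenpo, opposite strand) and 7.86% for Ift57 (Gm15518). The sources used here do not give the strand setting of the counting, so their levels may hold reads of those neighbours.

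**Figure D1:**
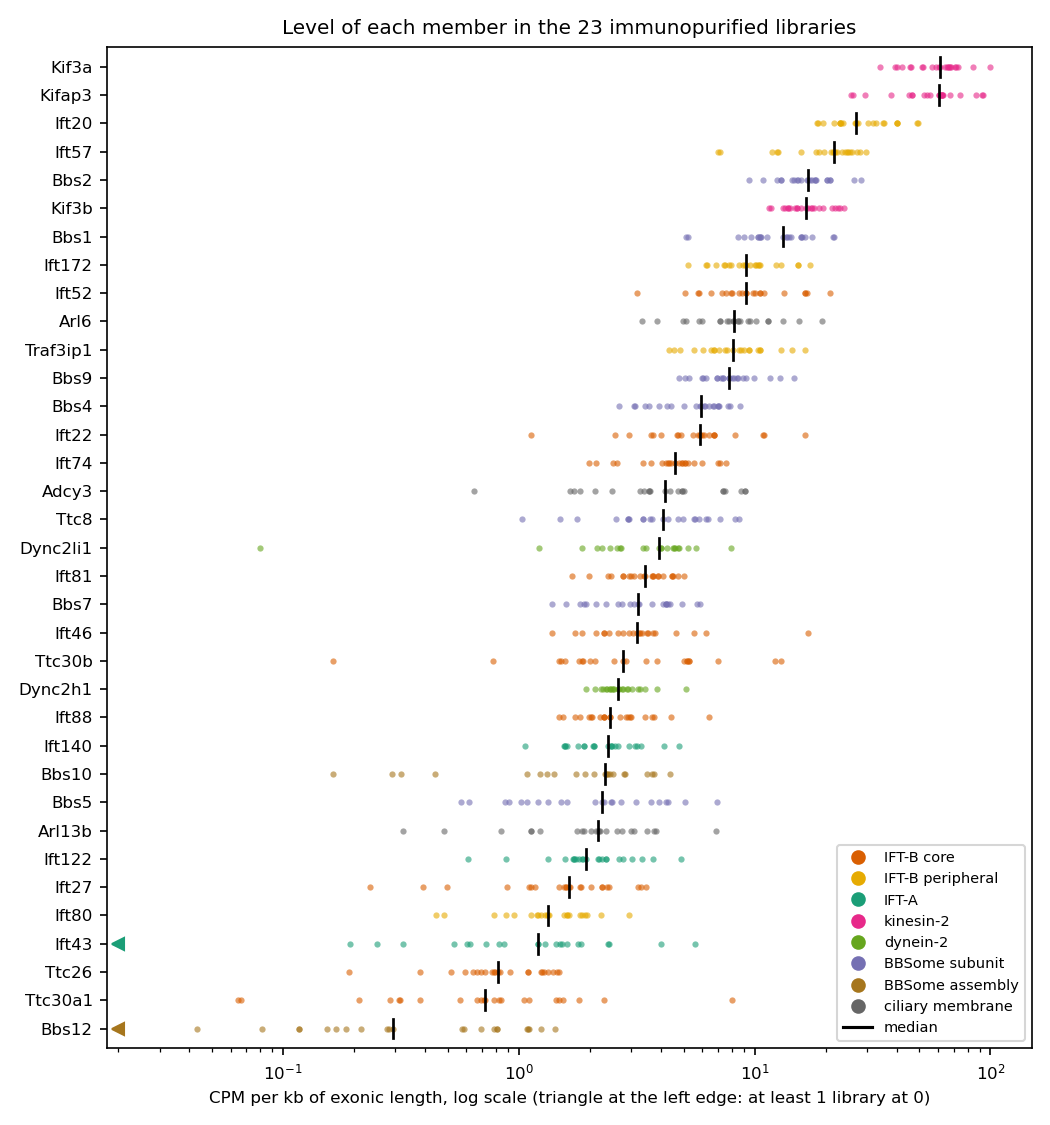
Level of each of the 35 members in CPM per kb of exonic length (log scale), with 1 point per immunopurified library and a black bar at the median. Colours mark the complex. Kif3a and Kifap3 stand at the top with medians of 60.8, and every member's range overlaps that of its neighbours in the order.

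The comparison of immunopurified with input RNA asked which members differ between purified ribosome-bound RNA and RNA of the whole tissue. It used the 12 immunopurified libraries of the 3 conditions that have an input, and the 3 inputs. Counts were tested for each gene by edgeR's quasi-likelihood test with Benjamini-Hochberg adjustment over 15610 genes, and an adjusted p under 0.05 was a call. Of 35 members, 1 was called higher and 1 lower, which is 2 of 35 beside 7.38% of all genes called (3.58% higher and 3.8% lower). The members' median log2 fold change was 0.04, with 18 of 35 above 0, beside a median of 0.16 and 56.7% above 0 over all genes tested. At an unadjusted p under 0.05 there were 5 members beside 26.3% of all genes.

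Dync2h1, the motor heavy chain of dynein-2, was lower in immunopurified RNA. Its gene spans chr9:6928503-7184446 on the minus strand (GRCm38). It was counted at 72.1 CPM in the saline input, 77.6 CPM in the non-escalating input and 85.2 CPM in the saline withdrawal input. In the 12 matched immunopurified libraries it ran from 31.6 through a median of 41.8 to 56.1 CPM, with no overlap with the inputs. The log2 fold change was -0.89 ± 0.20 (SE), with an edgeR adjusted p of 0.0168. Among the immunopurified libraries without a matched input, 1 non-escalating withdrawal library of set B reached 83.4 CPM and lay within the range of the inputs. The call was lost without the saline input (log2 -0.82, adjusted p = 0.0802) and without the non-escalating input (log2 -0.87, adjusted p = 0.102, both by edgeR), while the fold changed little. Its partner Dync2li1 showed a log2 fold change of 0.09 and was not called.

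Ttc30a1, a core IFT-B subunit that binds Ift52 and Ift88, was higher in immunopurified RNA at a low level. Its inputs held 5, 2 and 0 counts, or 0.774, 0.178 and 0 CPM, and the count of 0 allows up to 3. The 12 matched immunopurified libraries ran from 0.248 through a median of 3.10 to 29.8 CPM, and the lowest of them, a saline withdrawal library with 1 count, overlapped the inputs. The log2 fold change was 4.23 ± 1.21 (SE), with an edgeR adjusted p of 0.0452. Without the saline withdrawal input it was 3.78 (adjusted p = 0.123) and without the non-escalating input 3.45 (adjusted p = 0.179), and the call was also lost without any 1 of 7 immunopurified libraries, the 3 saline withdrawal libraries of set B, saline replicates 3 and 4, and non-escalating replicates 1 and 4. Without the saline input it was 6.11 (adjusted p = 0.0401, edgeR), and with no set term 4.14, which was not called (edgeR adjusted p = 0.0643).

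Ttc30a1 lies at chr2:75978247-75981967 on the minus strand, a gene without introns beside 2 near-identical copies, Ttc30a2 (chr2:75975740-75978170) and Ttc30b (chr2:75935849-75938585). Its coding sequence of 1992 bases is 95.1% identical to that of Ttc30a2, with an unbroken identical run of 460 bases, and 94.9% identical to that of Ttc30b, with a longest run of 212. The sources used here do not say how reads shared between copies were counted. No counts were given under the symbol Ttc30a2, so the split of reads among the copies is uncertain. Ttc30b had a fold change of the opposite sign: its inputs held 21.0, 42.7 and 6.14 CPM and its 12 matched immunopurified libraries had a median of 8.63 CPM. The log2 fold change of Ttc30b was -1.08 ± 0.51 (SE), which was not called (edgeR adjusted p = 0.188). Of its inputs, those at 21.0 and 6.14 CPM lay within the immunopurified range of 4.04 to 35.5 CPM.

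Ift46, a core IFT-B subunit known for carrying dynein arms into motile cilia, held 35.7, 26.1 and 23.9 CPM in the inputs and a median of 20.2 CPM in the matched immunopurified libraries. Its log2 fold change was -0.40, with an edgeR adjusted p of 0.652. Of the other 8 core IFT-B members, none was called, and the core's 10 log2 fold changes had a median of -0.30. The 5 peripheral IFT-B members (Ift20, Ift57, Ift80, Ift172 and Traf3ip1) ran from -0.64 to 0.61, with 4 above 0 and none called. Ift122, an IFT-A subunit, held 15.9, 12.01 and 3.41 CPM in the inputs and 6.30 to 50.3 CPM in the matched immunopurified libraries, with a median of 19.6 CPM. Its log2 fold change of 1.29 ± 0.52 (SE) was not called by edgeR (adjusted p = 0.133), and was called by DESeq2 (adjusted p = 0.0422).

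BBSome subunits lay on both sides of 0. Bbs7 held 12.997, 10.1 and 5.23 CPM in the inputs and a median of 15.3 CPM in the matched immunopurified libraries, from 7.44 CPM upward. Its log2 fold change was 1.015, with an edgeR adjusted p of 0.191. Bbs5, which binds phosphoinositides, held 12.1, 11.4 and 5.68 CPM in the inputs and a median of 3.80 CPM in the matched immunopurified libraries. The log2 fold change of Bbs5 was -1.36 ± 0.62 (SE), with an edgeR adjusted p of 0.173. Both sets of values overlapped between immunopurified and input libraries. Of the 7 BBSome subunits 5 had a fold change above 0 and none was called, while both assembly factors, Bbs10 and Bbs12, and all 3 membrane members, Arl6, Arl13b and Adcy3, lay below 0 without a call. Kinesin-2 ran from -0.22 (Kifap3) to 0.41 (Kif3b) on the log2 scale, also without a call.

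**Figure D2:**
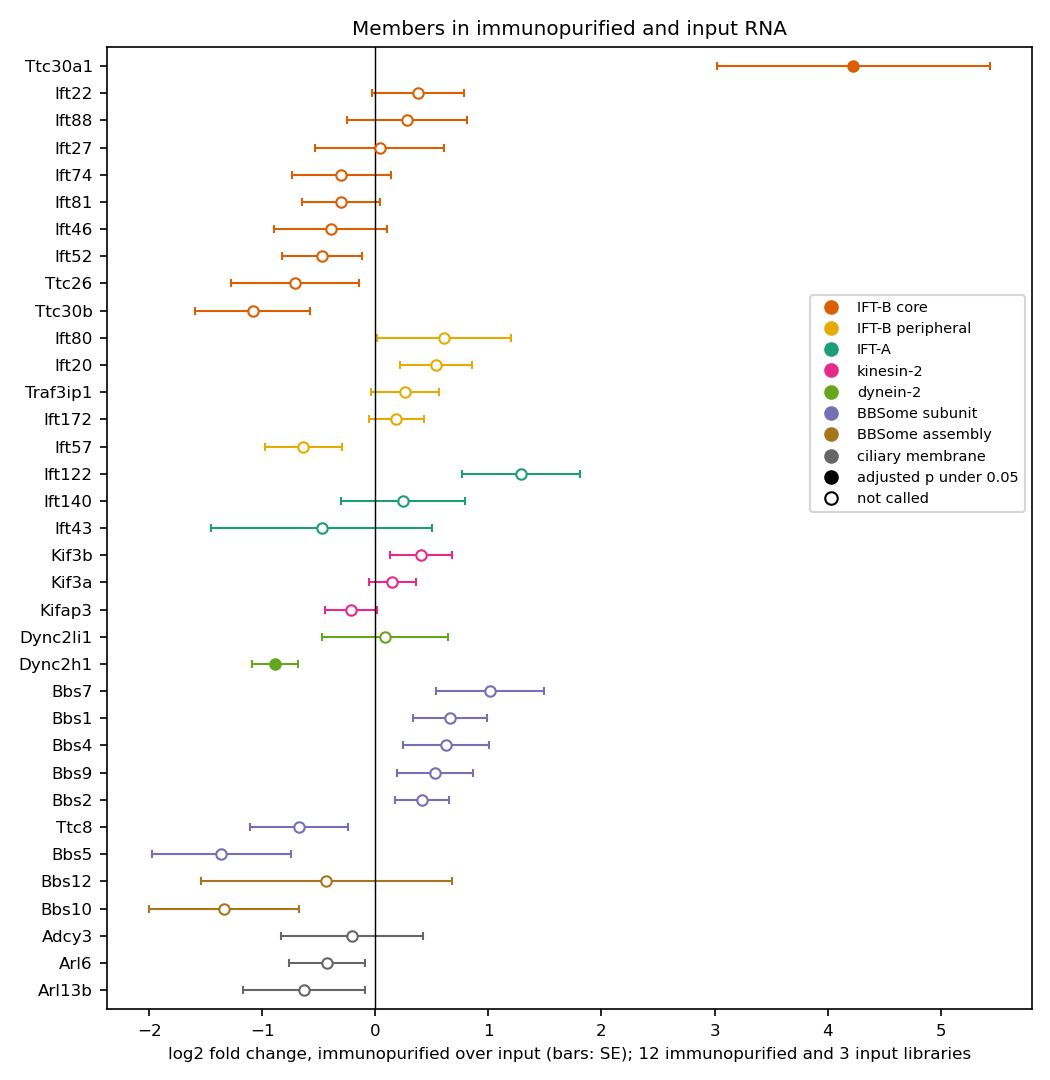
Log2 fold change of each member, immunopurified over input, with SE as bars, grouped and coloured by complex. Filled points are the 2 members with an adjusted p under 0.05, Dync2h1 at -0.89 and Ttc30a1 at 4.23, and the other 33 are open.

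**Figure D3:**
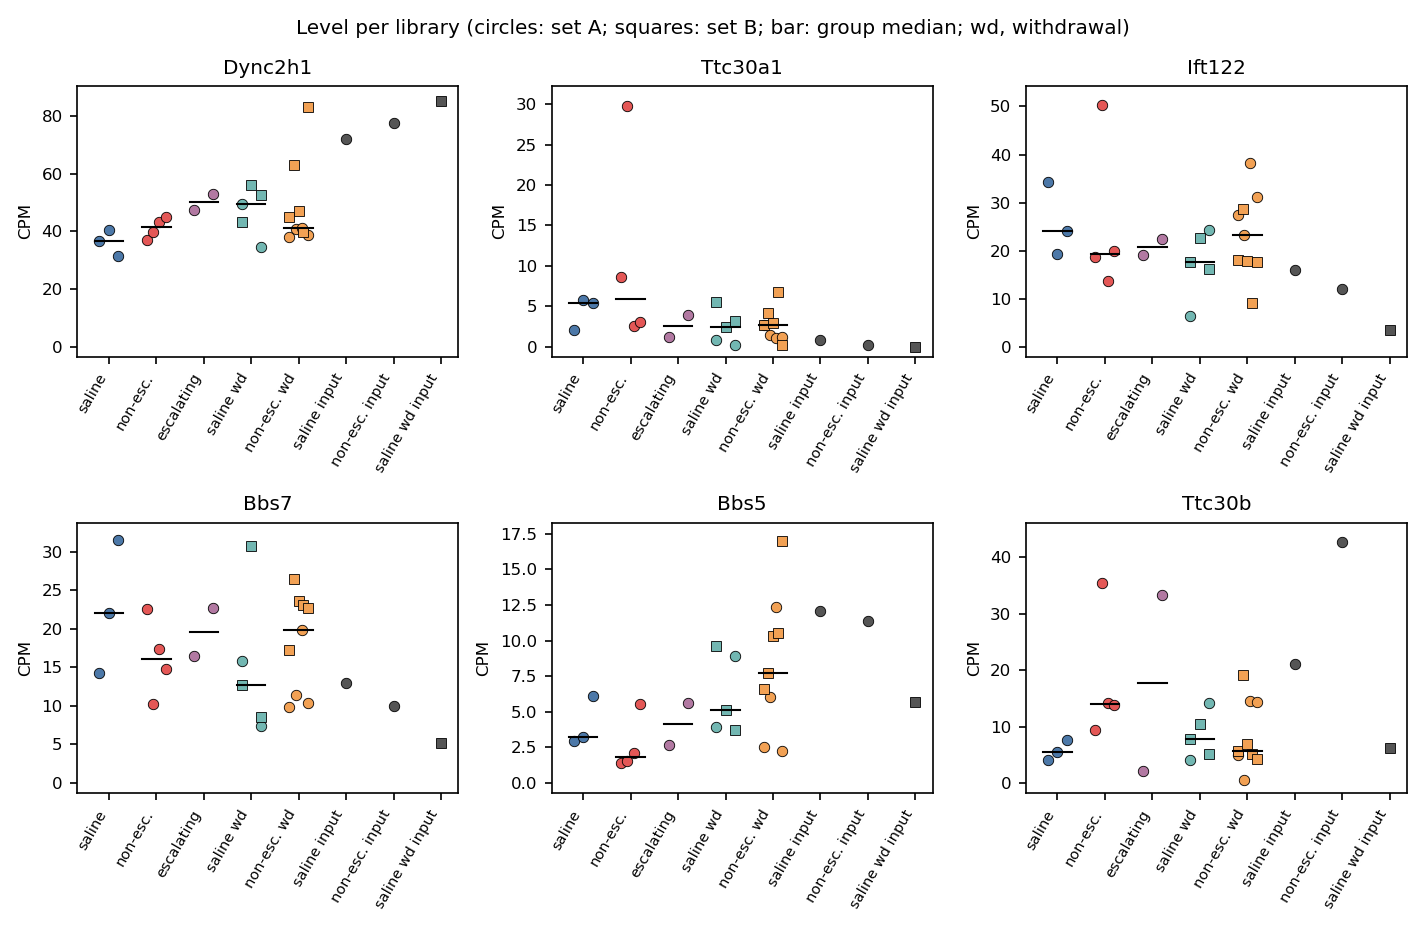
Level in CPM in every library for the 3 members with the lowest p in each direction between immunopurified and input RNA, by group, with circles for set A, squares for set B and bars at group medians. The 3 inputs of Dync2h1 (72.1 to 85.2 CPM) lie above 22 of 23 immunopurified libraries, while those of the other 5 genes overlap the immunopurified values.

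Genes of the same pathway with other symbols were read beside the members. Of 14 measured transport, BBSome and dynein-2 genes outside the rule, 1 was called higher and 0 lower between immunopurified and input RNA: Trim32, a ubiquitin ligase with roles beyond cilia that is also listed as a Bardet-Biedl gene, rose by a log2 of 0.96 (edgeR adjusted p = 0.0159). Its inputs held 95.7 to 201.8 CPM and its immunopurified libraries a median of 283 CPM. The IFT-A gene Wdr19 (log2 -0.92, adjusted p = 0.129) and the chaperonin-like Mkks (log2 -1.04, adjusted p = 0.0727) were not called. Of 20 transition zone and basal body genes none was called, with 10 fold changes above 0, and of 15 ciliary receptor and cargo adaptor genes none was called. Within that list the ciliary somatostatin receptor Sstr3 had a log2 fold change of -3.96 (adjusted p = 0.0936). Of 12 Hedgehog genes and 8 genes listed as transcription factors of ciliogenesis tested, none was called. In the latter list 3 of 8 fold changes lay above 0, with a median log2 of -0.31. Its lowest p values were those of Rfx2 (log2 3.19, edgeR adjusted p = 0.0521), Rfx5 (log2 2.14, adjusted p = 0.0984) and Rfx3 (log2 -0.53, adjusted p = 0.160). The adenylyl cyclases split, with Adcy6 called higher (log2 2.74) and Adcy2 called lower (log2 -2.28), whereas Adcy3 was not called (log2 -0.21). No list was tested as a set.

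Cells with motile cilia express these genes at high levels, so ependymal markers were read alongside. Summed over 11 detected ependymal and motile cilium genes, the level was 29.1 CPM in the saline input, 16.8 CPM in the non-escalating input and 24.3 CPM in the saline withdrawal input. In the 23 immunopurified libraries the sum had a median of 9.06 CPM and ran from 3.35 to 28.1 CPM, which overlapped the inputs. Of 5 such genes with enough counts to test, all had a fold change below 0 and none was called, and Tmem212 and Dnah12 were at 0 in all 3 inputs. Astrocyte and oligodendrocyte markers were lower in immunopurified RNA, with 4 of 5 called in each list. Of 4 endothelial markers 3 were called higher. The 4 had a median log2 fold change of 3.62, beside 1.93 for the 4 D2 neuron markers. The part of ependymal, glial and endothelial cells in the fold changes of the members was not tested.

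Comparisons among the 23 immunopurified libraries asked whether cocaine intake, its escalation or withdrawal went with a change of these genes. They came from 1 edgeR fit of 16908 genes that had terms for group and library set. No gene was called in any of the 7 comparisons (0.0% of all genes in each), so no member was. At an unadjusted p under 0.05 there were 356 genes in non-escalating cocaine against saline, 518 in escalating cocaine against saline, 558 in escalating against non-escalating cocaine, 881 in cocaine against saline after withdrawal, 884 in saline withdrawal against none, 763 in cocaine withdrawal against none and 344 in the interaction. DESeq2 called 3, 6, 11, 1, 7, 12 and 2 genes in the same order, and no member in any. Comparisons that use the same group share its libraries.

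Between non-escalating cocaine and saline, Ift46 and Ift52, partners in the IFT-B core, were the members with an unadjusted p under 0.05, 2 of 35 beside 2.11% of all genes. Ift46 stood at 14.7, 20.8 and 11.1 CPM in saline libraries and at 40.0, 108, 19.7 and 22.5 CPM in non-escalating ones. The groups overlapped, and 1 library carried most of the difference. Its log2 fold change was 1.61 ± 0.51 (SE; edgeR adjusted p = 1) and leaving out each library in turn gave 0.82 to 1.87. Ift52 stood at 16.1, 24.7 and 16.3 CPM in saline and at 37.4, 58.3, 46.6 and 24.1 CPM in non-escalating libraries, with a log2 fold change of 1.13. Ttc8, a BBSome subunit, had the opposite sign, from 22.0, 31.3 and 21.1 CPM in saline to 12.8, 5.66, 15.5 and 17.8 CPM in non-escalating libraries. These values of Ttc8 did not overlap, and its log2 fold change of -0.94 was not called. The non-escalating library with 108 CPM of Ift46 also held the most Ttc30a1 (29.8 CPM), Ift52 (58.3 CPM) and Ift122 (50.3 CPM) of any, the lowest Arl13b (1.64 CPM), and the lowest share of reads outside genes (21.2%). The Ttc30a1 log2 fold change was 1.32 with that library and 0.11 without it.

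Escalating cocaine had 2 libraries. Against saline no member had an unadjusted p under 0.05, beside 3.06% of all genes. The lowest p above 0 was that of Ttc30b, at 2.13 and 33.3 CPM in the escalating libraries against 4.04, 5.51 and 7.61 CPM in saline, and its log2 fold change of 1.63 turned to -1.42 without the second library. The lowest p below 0 was that of Ift81, which binds tubulin, at 11.6 and 16.1 CPM against 17.4, 23.9 and 21.8 CPM (log2 -0.60). Against non-escalating cocaine, Ift52 had 8.85 and 29.6 CPM in escalating libraries and a log2 fold change of -1.11, 1 of 35 at an unadjusted p under 0.05 beside 3.3% of all genes. It was -2.23 without escalating replicate 2 and -0.49 without escalating replicate 1. Ift20 had 53.3 and 49.8 CPM in the escalating libraries against 34.99, 48.3, 28.1 and 34.9 CPM, which did not overlap, and its log2 fold change was 0.49. In this comparison 12 of 35 members had a fold change above 0, with a median of -0.06, beside 48.4% and -0.02 over all genes.

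After withdrawal, cocaine libraries lay above saline libraries for many members on average, without a call. Of 35 members 25 had a fold change above 0, with a median of 0.25, beside 50.9% above 0 and a median of 0.01 over all genes, and all 3 kinesin-2 genes were among them (log2 0.27 to 0.39). Among other lists, 13 of 14 other kinesin and dynein motors lay above 0 (median 0.27). So did 11 of 14 transport, BBSome and dynein-2 genes outside the rule. For transition zone and basal body genes it was 12 of 20 (median 0.07), and for ciliary receptors and adaptors 8 of 15 (median 0.06). For ciliogenesis factors it was 5 of 8 (median 0.06) and for Hedgehog genes 5 of 13 (median -0.35). All 4 D2 neuron markers lay above 0 (median 0.75), whereas all 4 endothelial markers (median -1.10) and all 3 microglial markers tested (median -0.72) lay below 0. No marker was called, and the part of these cells in the members' values was not tested. The 3 members with an unadjusted p under 0.05, beside 5.21% of all genes, were Ift20, Ttc8 and Ift57. Ift20 stood at 35.03, 33.0, 46.1, 36.3 and 41.7 CPM in saline withdrawal libraries and ran from 28.2 through 61.1 to 74.9 CPM in the 9 cocaine withdrawal libraries, 6 of which lay above every saline library. Its log2 fold change was 0.53 ± 0.22 (SE; edgeR adjusted p = 0.749), 0.59 within set A and 0.49 within set B. Ttc8 stood at 3.91, 6.70, 13.9, 16.3 and 12.8 CPM against 9.74 through 13.6 to 32.3 CPM (log2 0.87), and Ift57 at 19.97, 35.7, 70.4, 69.3 and 20.4 CPM against 36.1 through 62.2 to 85.1 CPM (log2 0.60). Ift172, the largest IFT-B protein, had the lowest p below 0, with 114, 81.3, 69.2, 51.8 and 68.7 CPM against 34.4 through 48.9 to 100.6 CPM (log2 -0.47). The groups overlapped for each of these genes. The share of reads outside genes differed too. It was 31.9% to 70.7% (median 46.4%) in saline and 28.7% to 60.7% (median 32.3%) in cocaine withdrawal libraries. In the TMM fit described below, Ift20, Ttc8, Ift57 and kinesin-2 were lower where that share was high. With RLE factors only Ift57 and Kifap3 of these were called lower, and within set B none was. The part of this share in the fold changes was not tested.

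Saline withdrawal against saline without withdrawal gave 5 members with an unadjusted p under 0.05, beside 5.23% of all genes, all with a fold change below 0: Ttc8 (log2 -1.66), Bbs7 (-1.04), Ift57 (-0.93), Ift74 (-0.88) and Ttc30a1 (-2.17). In the same comparison 2 of 14 other kinesin and dynein motors (median -0.37) and 0 of 4 D2 neuron markers (median -0.63) lay above 0, while all 4 endothelial markers did (median 1.61), with no call and their part in the members' values not tested. Ttc8 stood at 22.0, 31.3 and 21.1 CPM without and at 3.91 to 16.3 CPM after withdrawal, with no overlap, and its edgeR adjusted p was 0.782. Without the libraries that had over 50% of reads outside genes its log2 fold change was -1.06. Ift172 had the lowest p above 0 (log2 0.28) and turned to -0.39 without those libraries. All libraries without withdrawal belong to set A, so within set A alone only 2 saline withdrawal libraries remained, and there Ttc8 had a log2 fold change of -2.24. Of these, 1 is replicate 2, whose title lacks the mark and whose table has the other annotation.

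In non-escalating cocaine, withdrawal against none gave 3 members with an unadjusted p under 0.05, beside 4.51% of all genes. Of 35 members 11 had a fold change above 0, with a median of -0.21, beside 55.8% and a median of 0.09 over all genes. Ttc30a1 had the largest fold change of the set, at 8.57, 29.8, 2.56 and 3.08 CPM without withdrawal against 0.239 through 2.65 to 6.69 CPM after it. Its log2 fold change was -3.05 ± 0.78 (SE; edgeR adjusted p = 0.926), and the groups overlapped. Leaving out each library gave -3.43 to -1.84, the latter without the non-escalating library at 29.8 CPM. Within set A, where the 4 withdrawal libraries held 2.68, 1.42, 1.06 and 1.16 CPM, it was -2.79. Ift46 had a log2 fold change of -1.11, with 20.5 CPM as the median of the 9 withdrawal libraries, and of -0.31 without that same library. Bbs5 had the opposite sign, from 1.40, 1.51, 2.14 and 5.52 CPM to 2.23 through 7.70 to 17.0 CPM, with a log2 fold change of 1.31 and overlapping groups. Neither gene was called (edgeR adjusted p = 0.926 for both).

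The interaction tested whether the cocaine difference itself changed with withdrawal. Of 35 members 2 had an unadjusted p under 0.05, beside 2.03% of all genes. The interaction term of Ttc8 was 1.81 ± 0.61 (SE) on the log2 scale, from a cocaine difference of -0.94 without and 0.87 after withdrawal. For Ift46 it was -1.43 ± 0.61 (SE), from 1.61 without and 0.19 after withdrawal, and it was -0.63 without the non-escalating library at 108 CPM. Both had an edgeR adjusted p of 1.

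**Figure D4:**
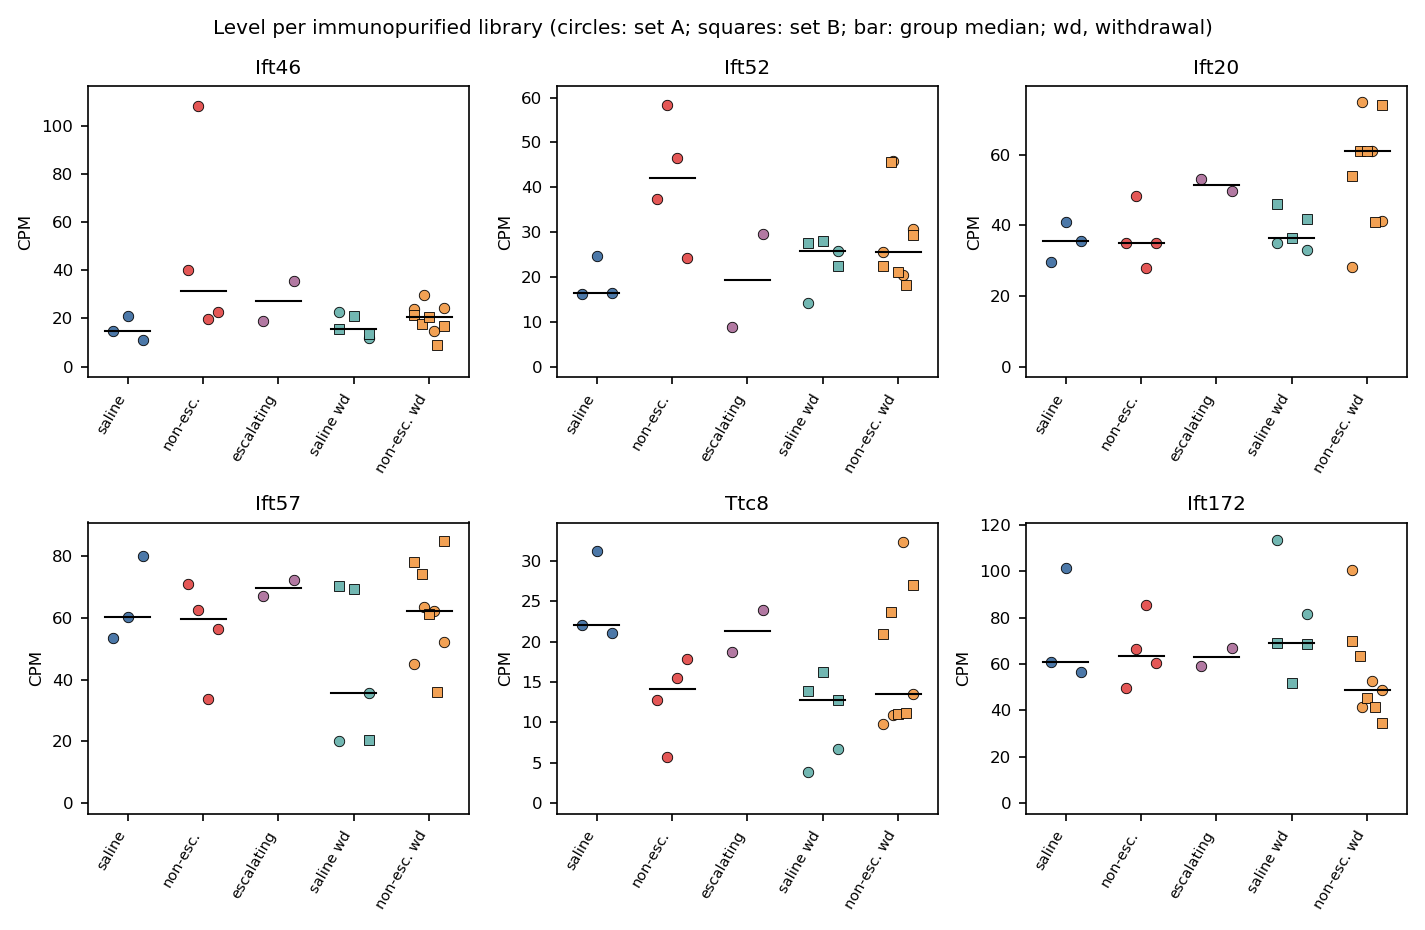
Level in CPM in every immunopurified library, by group, for 6 members named in the comparisons of groups, with circles for set A, squares for set B and bars at group medians. In each panel the groups overlap for most pairs, and 1 non-escalating library stands at 108 CPM of Ift46.

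The share of uniquely aligned reads that fell outside genes, a measure of library content chosen after the data were seen, went with the level of many genes. In an edgeR fit over the immunopurified libraries with group and set as terms, 14 of 35 members changed with this share, beside 47.8% of all genes: 12 were lower (22.8% of all genes) and 2 were higher (25.1%) where more reads fell outside genes. All 3 kinesin-2 genes were lower, by log2 -0.28 ± 0.04 (SE) for Kifap3, -0.17 for Kif3a and -0.16 for Kif3b per 10 percentage points. Adcy3 had the steepest slope among the lower members, -0.46 ± 0.10 (SE; adjusted p = 5.6e-04), followed by Ift22 (-0.41), Ift122 (-0.30), Ttc8 (-0.29), Ift57 (-0.27), Bbs4 (-0.24), Ift52 (-0.23), Arl6 (-0.22) and Ift20 (-0.17). Ift43 (0.82 ± 0.25 SE) and Arl13b (0.40) were the higher ones. Dync2h1 (-0.03) and Ttc30a1 (-0.08), the members called against input, were not called here.

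The levels of Kifap3, the member with the lowest p for this share, are given as an example. Its extremes also differ in library set, so they do not give the size of the slope. Its lowest levels, 103, 105 and 118 CPM, were in set A libraries with 60.7%, 70.7% and 52.7% of reads outside genes. Its highest levels, 372, 370 and 347 CPM, were in set B libraries with 32.3%, 29.8% and 31.9%. The 2 set B libraries with the highest shares, 58.4% and 52.2%, still held 215 and 249 CPM, above all 3 of the set A libraries over 50%. With RLE size factors in place of TMM, 7 members were called, 3 higher and 4 lower, and the split over all genes moved from 4240 higher and 3847 lower to 4938 higher and 2838 lower. Adcy3, Ift22, Ift57 and Kifap3 were lower under both scalings. Without the libraries over 50%, Adcy3 and Kifap3 were the members called. Within set A Adcy3, Ift22 and Kifap3 were called, and within set B none was called by edgeR, with 2 at an unadjusted p under 0.05. Over all genes, calls numbered 1937 of 16110 without the libraries over 50%, 5239 of 16819 in set A and 1315 of 13108 in set B. The libraries over 50% also differed in cell markers. In order of share from 70.7% through 60.7%, 58.4% and 52.7% to 52.2%, D2 neuron markers summed to 1921, 4769, 3732, 4291 and 4974 CPM, beside a median of 8351 CPM over all 23. Endothelial markers summed to 3139, 2572, 1641, 2100 and 935 CPM, beside a median of 657 CPM. The share and these markers moved together, and their parts in the members' levels were not tested separately.

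The differences between groups were also read from the fit that holds this share as a term, and no member was called in any of the 7 comparisons there. Over all genes, edgeR called 2 in escalating cocaine against saline and 4 in escalating against non-escalating cocaine, all higher, and 0 in the others. After withdrawal, 25 members lay above 0 in cocaine against saline, as without the term, and Ift20 had a log2 fold change of 0.37 in place of 0.53. In saline withdrawal against none, 16 members lay above 0 in place of 15, Ttc8 had -1.40 in place of -1.66 and Ift172 had 0.07 in place of 0.28. For Ttc30a1 in non-escalating cocaine, withdrawal against none, it was -2.87 in place of -3.05. The interaction of Ttc8 was 1.69 in place of 1.81, and that of Ift46 -1.37 in place of -1.43.

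**Figure D5:**
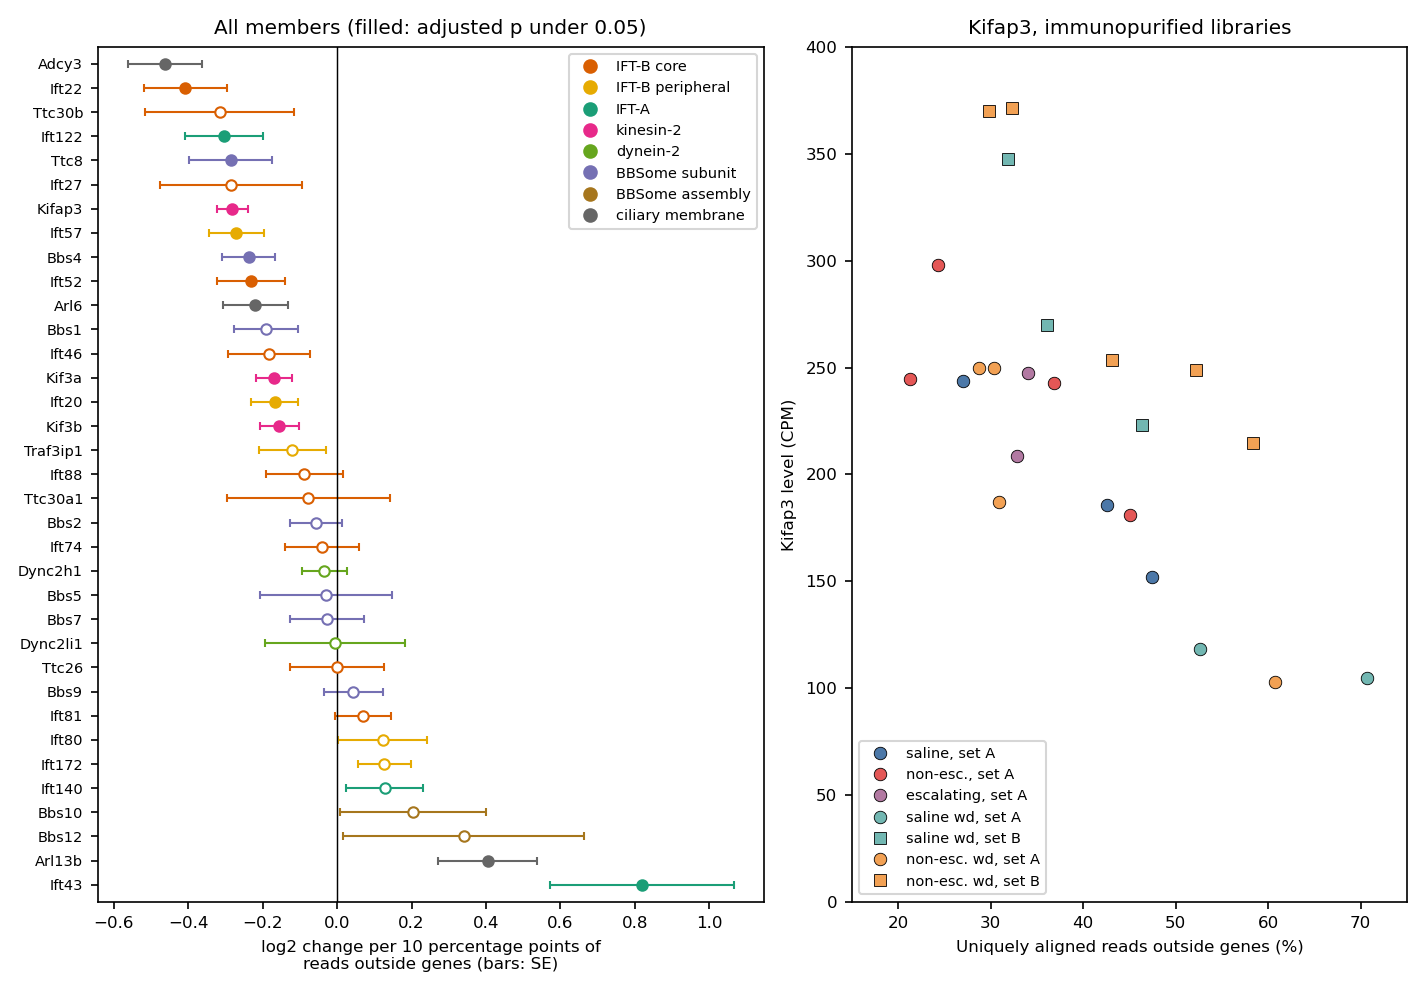
Left, log2 change of each member per 10 percentage points of uniquely aligned reads outside genes, with SE as bars and filled points for an adjusted p under 0.05. Right, Kifap3 level in CPM against that share in the 23 immunopurified libraries, with colours for groups, circles for set A and squares for set B. The highest level, 372 CPM, was in a set B library at 32.3%, and a set A library at 70.7% held 105 CPM.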

How the data were processed

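The authors deposited raw counts for each gene symbol in 1 table for each library. The submitters' processing notes name STAR 2.0.0e, the mm10 build and HTSeq. The sources used here do not give the annotation release, the strand setting or the treatment of shared reads. Groups came from sample titles. The tables follow 2 annotations, of 32531 genes in 10 tables and 32657 in 16, joined by 31735 shared symbols and 242 synonym pairs. Entries without a gene name were used solely to compute what share of uniquely aligned reads fell outside genes, and ambiguous reads made up 0.942% to 2.85% of reads in immunopurified and 8.61% to 12.8% in input libraries. None of 56 pairs of libraries of the same group was identical.

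Counts were tested in R 4.3.3 with edgeR 4.0.16 (TMM, filterByExpr, quasi-likelihood F test). Immunopurified and input libraries were compared with condition and set as terms (15 libraries, 15610 genes, 10 residual degrees of freedom), and groups in 1 fit of 23 libraries (16908 genes, 17 residual degrees of freedom). All 35 members passed both filters. Adjusted p under 0.05 was a call. SE came from the fold change and F. Levels are CPM on TMM-scaled sizes of all 26 libraries, and lengths and positions are from GENCODE M21 (GRCm38), on which no counting was based. An observed 0 allows up to 3 counts, a limit for counting error only. Tested on simulated data, 35% of genes changed 4-fold and 2% of those changed 2-fold were recovered for immunopurified against input. For the withdrawal comparison of cocaine with saline these were 44% and 5%. Fewer genes were changed in the simulation than the 1152 called against input, so recovery for that comparison may be understated. Alternatives were RLE factors, DESeq2 1.42.0, no low-count filter, no set term, a replicate block, the share of reads outside genes as a covariate in the comparisons of groups, each set alone and leaving out each library. Leaving out libraries with over 50% of reads outside genes, and reporting the coefficient of that share itself, were added after seeing the data. Values per library are given for Ift46 and Ttc30a1, called members, the 3 members with the lowest p in each direction against input, and 1 in each direction in other comparisons, and Ift52, Ift57 and Kifap3 were added after their values were seen. Up to 3 genes of each other list were named by lowest p, and some genes so selected are not reported here. The members and lists were chosen with earlier results of these data known.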

Additional observations from a re-analysis of the deposited data

How the results depend on the processing

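The number of members called between immunopurified and input RNA was 2 and stayed 2 with RLE factors, with no low-count filter and without libraries over 50% of reads outside genes. It was 3 by DESeq2, 1 with no set term, and 0 to 2 when each library was left out, with 0 (and 4 at an unadjusted p under 0.05) without the non-escalating input. Over all genes the calls went from 1152 to 2951 by DESeq2. The labels do not say whether replicate numbers pair libraries. Residual correlations had a median of -0.18 (-0.54 to 0.57) in 25 same-number pairs and -0.07 (-0.60 to 0.61) in 78 others. These ranges overlap, so the check cannot exclude pairing. With a replicate block 0 members were called by edgeR (5 at an unadjusted p under 0.05) and 46 genes in all, Ift46 in saline withdrawal against none was -0.22, and the Ttc30a1 interaction was 0.30. Between groups no member was called under any alternative run.

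Some log2 fold changes that were not called changed sign, and the cause was not tested: Ift46 against input, from -0.88 without the non-escalating input to 0.13 without the saline input; Ttc30b in escalating cocaine against saline without escalating replicate 2 (-1.42, and 2.54 without replicate 1); Ttc30a1 after withdrawal, cocaine against saline, in set B alone (-0.11) and without libraries over 50% (-0.68); Ift172 in saline withdrawal against none without those libraries (-0.39); and the Ttc30a1 interaction in set A alone (0.18) and without non-escalating replicate 2 (0.34, and -1.21 without replicate 3). For the share of reads outside genes, 14 members were called, with 7 by RLE, 9 by DESeq2, 11 with no filter, 3 in set A, 0 in set B, 2 without libraries over 50% and 10 to 15 when each library was left out. Over all genes the calls were 8087 of 16908 in the main fit, 7776 of 16908 by RLE, 8297 of 16908 by DESeq2 and 8174 of 22225 with no filter. They were 5239 of 16819 in set A, 1315 of 13108 in set B and 1937 of 16110 without libraries over 50%. RLE moved the median of all genes in saline withdrawal against none from 0.08 to 0.22. Inputs numbered 3, members below 10 CPM rest on few counts, and simulated 2-fold changes were rarely recovered.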

Other observations

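Hedgehog signalling runs through the primary cilium, and its low members showed wide ranges that no test called. Gli1, a transcription factor and target of the pathway, was at 0 in all 3 inputs, each of which allows up to 3 counts, and had a median of 1.24 CPM in immunopurified libraries, from 0 to 4.50 CPM (edgeR adjusted p = 0.0688). Hhip, which binds Hedgehog ligands, held 14.1 to 37.7 CPM in the inputs and a median of 1.57 CPM in immunopurified libraries, with a log2 fold change of -3.14 (edgeR adjusted p = 0.0517).

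An isolated highest or lowest value was looked for in 39 groups of 4 to 10 libraries. These covered the levels of named members and the members' summed share of gene counts. In them 0 were found, where chance gives about 1 in 20.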
